A study of Mus musculus with 7 samples.

Results

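Cells kept at low oxygen were set directly against cells kept without glucose, as 2 ways of limiting the energy supply of fibroblasts at the same time point. The comparison used 2 of the 7 RNA-seq libraries of mouse embryonic fibroblasts (MEFs), primary connective tissue cells of wild type embryos whose head and fetal liver had been removed before culture. In hypoxia the cells stayed for 10 hours in a chamber set at 0.1% oxygen. In glucose depletion they spent 10 hours in glucose-free DMEM, and whether that medium held pyruvate is not given in the sources used here. The methods describe no change of medium for hypoxia. Whether replacing the medium had a part in any difference was not tested. The untreated control library and those of glutamine depletion, ER stress (thapsigargin), oxidative stress (sodium arsenite) and osmotic stress (added NaCl) serve only to place a value, and are called the other 5 libraries below. Of these, oxidative and osmotic stress lasted 3 hours and glutamine depletion and ER stress 10 hours, so where a library is called the highest or lowest of the 7, treatment times differed. The time at which the control was collected is not given. The 11627 genes compared, of 49382 in the table, averaged 2 TPM or more across all 7 libraries. Left out were symbol patterns, given in the processing, that are typical of predicted genes, microRNAs, snoRNAs, mitochondrial tRNAs and pseudogenes. MicroRNAs and pseudogenes under other symbols remained, some of them at the ends of the ranking. TPM corrects for transcript length and is a share of a library, so each value depends also on the shares of all remaining genes. Differences are hypoxia minus glucose depletion on the log2(TPM + 1) scale, where 1 unit is 2-fold and the change of low genes is understated. Each condition was 1 library with no replicate, so no difference could be set against the spread between cultures and no p-value is given. Genes at least 2-fold apart were counted, which is a rule of size and not a test.

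Oxygen and glucose are read by separate systems in mammalian cells. Prolyl hydroxylases of the EGLN family use oxygen to mark the HIF subunits for destruction by VHL, and when oxygen is short HIF accumulates and switches on genes of glycolysis, oxygen delivery and mitochondrial remodelling, many of them through a short DNA core read as ACGTG or GCGTG. The transcription factor MondoA follows glucose through glucose 6-phosphate and drives Txnip and Arrdc4, whose proteins restrain glucose uptake, through a paired element called the carbohydrate response element. AMPK and the integrated stress response read low energy and poor protein folding or amino acid supply.

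The DNA before the start sites of 5 genes on which the comparison turns is shown to place these elements. Bnip3, Egln3, Slc16a3 and Pdk1 were among the genes with the largest excess in hypoxia, and Txnip is the best known glucose-responsive gene. Each sequence is the 250 bases before a RefSeq start site in GRCm38.p6, read 5′ to 3′ along the gene. In the first 4 the capitals mark ACGTG or GCGTG on either strand, so that the opposite strand reads CACGT or CACGC and a CACGTG counts on both strands. In Txnip the capitals mark the match to the carbohydrate response element, searched on both strands as a pair of CACGNG boxes with 5 bases of any kind between them.
Bnip3: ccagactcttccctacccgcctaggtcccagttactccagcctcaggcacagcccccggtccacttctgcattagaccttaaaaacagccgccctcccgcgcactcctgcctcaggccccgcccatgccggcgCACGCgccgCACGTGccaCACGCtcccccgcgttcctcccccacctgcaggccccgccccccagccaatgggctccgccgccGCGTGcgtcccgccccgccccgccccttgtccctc
Egln3: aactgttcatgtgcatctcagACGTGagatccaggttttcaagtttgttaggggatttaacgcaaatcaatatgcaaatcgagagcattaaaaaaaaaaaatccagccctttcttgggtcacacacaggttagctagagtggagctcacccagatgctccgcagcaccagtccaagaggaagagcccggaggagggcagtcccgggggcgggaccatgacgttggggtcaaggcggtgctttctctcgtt
Slc16a3: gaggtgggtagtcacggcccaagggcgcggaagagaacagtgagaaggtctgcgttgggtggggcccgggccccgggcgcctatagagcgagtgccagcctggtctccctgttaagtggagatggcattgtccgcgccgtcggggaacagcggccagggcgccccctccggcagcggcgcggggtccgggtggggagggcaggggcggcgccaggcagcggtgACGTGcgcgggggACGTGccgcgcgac
Pdk1: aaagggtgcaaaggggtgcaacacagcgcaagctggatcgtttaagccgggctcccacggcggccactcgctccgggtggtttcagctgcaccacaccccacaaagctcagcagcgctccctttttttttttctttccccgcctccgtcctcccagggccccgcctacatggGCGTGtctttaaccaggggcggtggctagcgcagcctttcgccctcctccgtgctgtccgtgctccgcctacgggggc
Txnip: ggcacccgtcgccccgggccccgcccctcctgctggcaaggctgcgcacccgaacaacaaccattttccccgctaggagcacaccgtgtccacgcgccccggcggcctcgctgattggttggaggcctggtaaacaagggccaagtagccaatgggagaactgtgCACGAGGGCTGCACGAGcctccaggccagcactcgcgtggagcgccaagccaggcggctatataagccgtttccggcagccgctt
The Bnip3 window is chr7:138909507-138909756 on the minus strand and held 5 matches, at -117, -108, -107, -99 and -35 from the start. The Egln3 window, chr12:54203875-54204124 on the minus strand, held 1 match at -229. In Slc16a3, chr11:120948817-120949066 on the plus strand, the matches were at -27 and -14. The first of 2 Pdk1 windows, chr2:71872974-71873223 on the plus strand, held 1 match at -78, and the other window held none. In Txnip, chr3:96557707-96557956 on the plus strand, the carbohydrate response element spanned -85 to -69, and core matches that are not capitalised lay at -160 and -51. The core was common, present in 38.6% of the 32851 windows of all genes, whose median GC content was 52.4%. It was present in 31 of 42 windows (73.8%) of the 25 glycolysis genes found in the table of start sites, where the median GC content was 59.8%. The windows of all genes include genes below the expression filter, and no share is given for the genes compared. The 2 shares are therefore not from like sets. The carbohydrate response element occurred in 15 windows of all genes (0.0457%) and in none of the glycolysis windows. The Arrdc4 window, chr7:68749239-68749488 on the minus strand, held no match to the carbohydrate response element and 3 core matches, at -193, -192 and -150. A match describes letters and does not show binding.

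Past 2-fold, more genes stood higher in hypoxia than in glucose depletion, and without a threshold more were lower. At least 2-fold apart were 468 genes (4.03% of those compared), 303 higher in hypoxia (2.61%) and 165 higher in glucose depletion (1.42%). At 1.5-fold, 936 genes (8.05%) were higher in hypoxia and 800 (6.88%) in glucose depletion, and by any amount 5549 (47.7%) and 6067 (52.2%). The median difference of all genes was -0.02, and the central 90% ran from -0.67 to 0.75. The 2 sides also differed in size, since 75 of the 303 genes higher in hypoxia were at least 4-fold apart and 27 at least 8-fold, against 17 and 6 of the 165 on the other side. In 225 of the 303 genes (74.3%) hypoxia was the highest of the 7 libraries, a place it held in 15.9% of all genes, and in 79 (26.1%) glucose depletion was the lowest, against 6.30% of all genes. Among the 165, hypoxia was the lowest library in 80 (48.5%, against 12.7% of all genes) and glucose depletion the highest in 54 (32.7%, against 9.05%). These 4 shares are descriptions, since being 2-fold apart already favours an extreme place. When 5 TPM rather than 1 was added before taking logs, 22 of the 123 genes named here as 2-fold apart came within 2-fold, mostly low ones, among them Cox7a1, Car6, Arrdc4, Foxo3, Slc1a4, Tm7sf2, Tet2, Gins1, Egr2, Egr3, Fgf21, Cry1, Ddx21, Foxs1, Col15a1 and Ccl2. Of the 38 gene lists described below, 20 had members 2-fold higher in hypoxia alone, 3 in glucose depletion alone, 3 on both sides and 12 on neither. The counts in each list are to be read against the 2.61% of all genes higher in hypoxia and the 1.42% higher in glucose depletion.

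**Figure D1:**
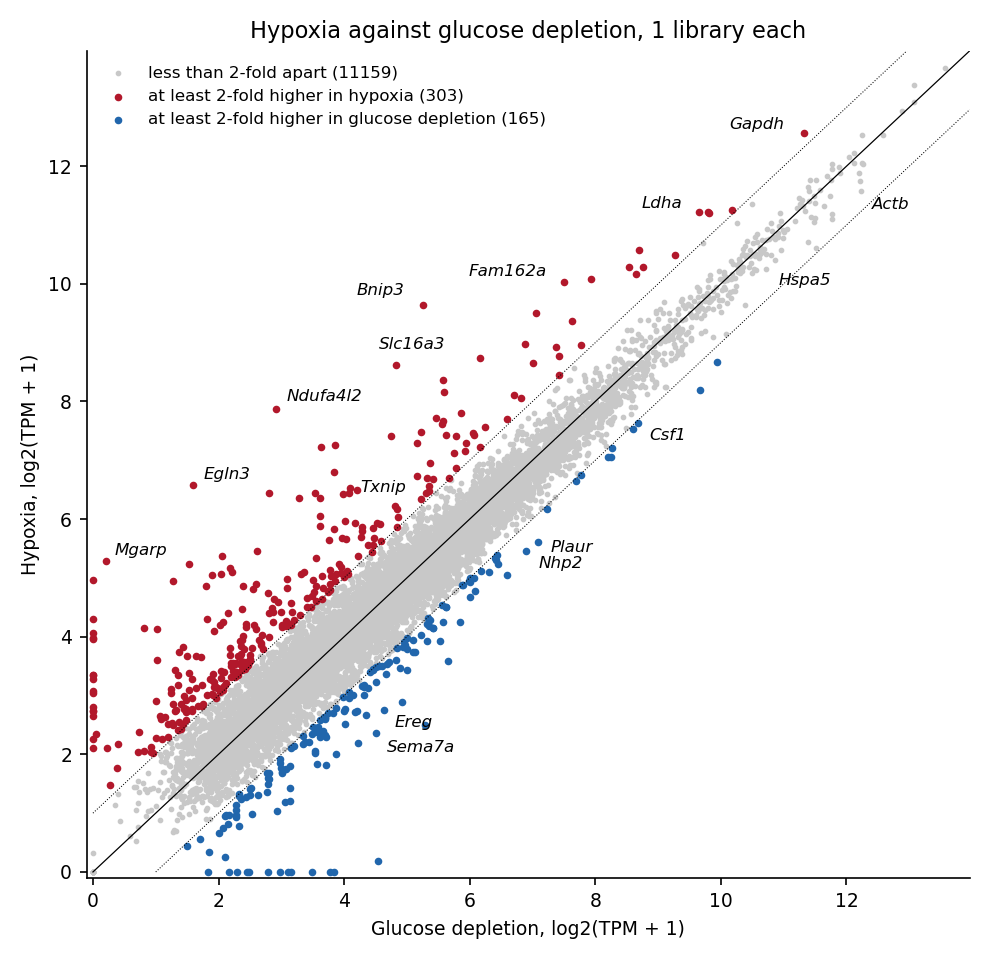
Expression of the 11627 genes in hypoxia (vertical axis) and glucose depletion (horizontal axis), both as log2(TPM + 1), 1 library each. The solid line marks equal values and the dotted lines 2-fold; the 303 red genes spread further from the line than the 165 blue ones, from Mgarp at low expression to Gapdh at the top.

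Both libraries carried the markers of fibroblasts. The 10 fibroblast markers, among them Col1a1, Pdgfra and Thy1, summed to 12846 TPM in hypoxia and 11885 TPM in glucose depletion, and 0 of them were 2-fold apart. Macrophage markers summed to 10.4 and 11.3 TPM with Adgre1 listed at 0 in both libraries, endothelial markers to 5.58 and 4.09 TPM, epithelial markers to 4.04 and 6.69 TPM, and neural markers to 26.6 and 25.3 TPM. All 5 erythroid markers were listed at 0 in both. Skeletal muscle markers summed to 107 TPM in hypoxia and 187 TPM in glucose depletion, mostly Acta1 at 76.7 and 152 TPM. Whether this difference had a part in any result was not tested. Mitochondrially encoded genes took 6.50% of the TPM in hypoxia and 6.51% in glucose depletion.

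Bnip3 and Txnip, the marker genes set for the comparison, behaved differently across the libraries. They were chosen with earlier results of these data known, so their values are no separate support for the labels. Bnip3, a mitophagy receptor of the outer mitochondrial membrane, was at 797 TPM in hypoxia, 37.4 in glucose depletion, 26.7 in the control, 22.7 in glutamine depletion, 37.8 in osmotic stress, 29.6 in ER stress and 29.8 in oxidative stress. Hypoxia thus stood alone and glucose depletion lay within the narrow band of the rest, and the 2 libraries differed by 4.38, or 20.8-fold. Txnip, which binds thioredoxin and promotes removal of glucose transporters from the surface, was at 91.7 TPM in hypoxia, 16.1 in glucose depletion, 70.7 in the control, 68.7 in glutamine depletion, 7.22 in osmotic stress, 120 in ER stress and 44.9 in oxidative stress. Its difference of 2.44 (5.42-fold) came with a low value in glucose depletion and a hypoxia value near the control, and osmotic stress was lower still.

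Of the oxygen-using hydroxylases that act on HIF, Egln1 and Egln3 were higher in hypoxia, while Egln2, Hif1an and the HIF subunit Hif1a were within 2-fold. Of the 12 genes of the HIF system 9 passed the expression filter, 3 were at least 2-fold higher in hypoxia and 0 in glucose depletion, with a median of 0.26. Egln3, a prolyl hydroxylase, was at 94.7 TPM in hypoxia, 2.02 in glucose depletion and between 1.26 and 2.44 in the other 5 libraries, a difference of 4.98. Egln1, the main prolyl hydroxylase of most cells, was at 170 and 26.0 TPM (2.66), with 16.8 to 24.4 in the others. Vhl, which binds hydroxylated HIF, was at 50.4 and 21.2 TPM (1.21). In contrast Egln2 was at 44.9 and 43.4 TPM (0.05). Hif1an, which hydroxylates an asparagine of HIF, was at 13.5 and 13.0 TPM (0.06), and Hif1a at 108 and 90.1 TPM (0.25). Epas1, Hif3a and Cited4 were below the filter.

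Glycolysis was separated along nearly its whole length, and hypoxia stood above every other library in 19 of its 26 genes, against 15.9% of all genes. Of the 26 genes of glucose transport and glycolysis, 18 were at least 2-fold higher in hypoxia and 0 in glucose depletion, with a median of 1.52. Their TPM summed to 22616 in hypoxia, 8316 in glucose depletion, 7352 in the control and 6320 to 8160 in the other 5 libraries. Glucose depletion was thus the highest library after hypoxia, slightly above osmotic stress at 8160 TPM. Entry and trapping of glucose were part of it. Slc2a1, the basal glucose transporter, was at 429 TPM in hypoxia, 70.5 in glucose depletion and 58.4 in the control (2.59). Hk2, a hexokinase, was at 56.1 and 13.3 TPM (2.00), and ER stress reached 48.9 TPM. Hk1 was at 222 and 57.3 TPM (1.94). The committed step followed, with Pfkl, a phosphofructokinase subunit, at 287 and 47.1 TPM (2.58), and Pfkfb3, which makes its activator fructose 2,6-bisphosphate, at 86.4 and 10.6 TPM (2.92). The third subunit gene Pfkm was within 2-fold at 28.1 and 14.8 TPM (0.88).

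The abundant enzymes of lower glycolysis were higher in hypoxia by smaller differences at larger levels. Gapdh was at 6067 TPM in hypoxia, 2563 in glucose depletion and 2105 to 2539 in the other 5 libraries (1.24). Pgk1, the first ATP-forming step, was at 1244 and 372 TPM (1.74). Ldha, which turns pyruvate into lactate, was at 2381, 807 and, in the control, 692 TPM (1.56). Its partner Ldhb was not 2-fold apart, at 50.2 and 41.4 TPM (0.27). Slc16a3, the lactate exporter MCT4, had the largest difference of the list, with 391 TPM in hypoxia, 27.4 in glucose depletion and 9.06 to 14.1 in the other 5 (3.79). Here glucose depletion also stood above the other 5 libraries. The second exporter Slc16a1 was at 23.5 and 20.3 TPM (0.20). Genes of the list within 2-fold were Pfkm, Eno2, Ldhb, Slc16a1, Pfkfb1, Pfkfb2, Pfkfb4 and Tigar, an inhibitor of glycolytic flux at 7.18 and 9.41 TPM (-0.35).

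**Figure D2:**
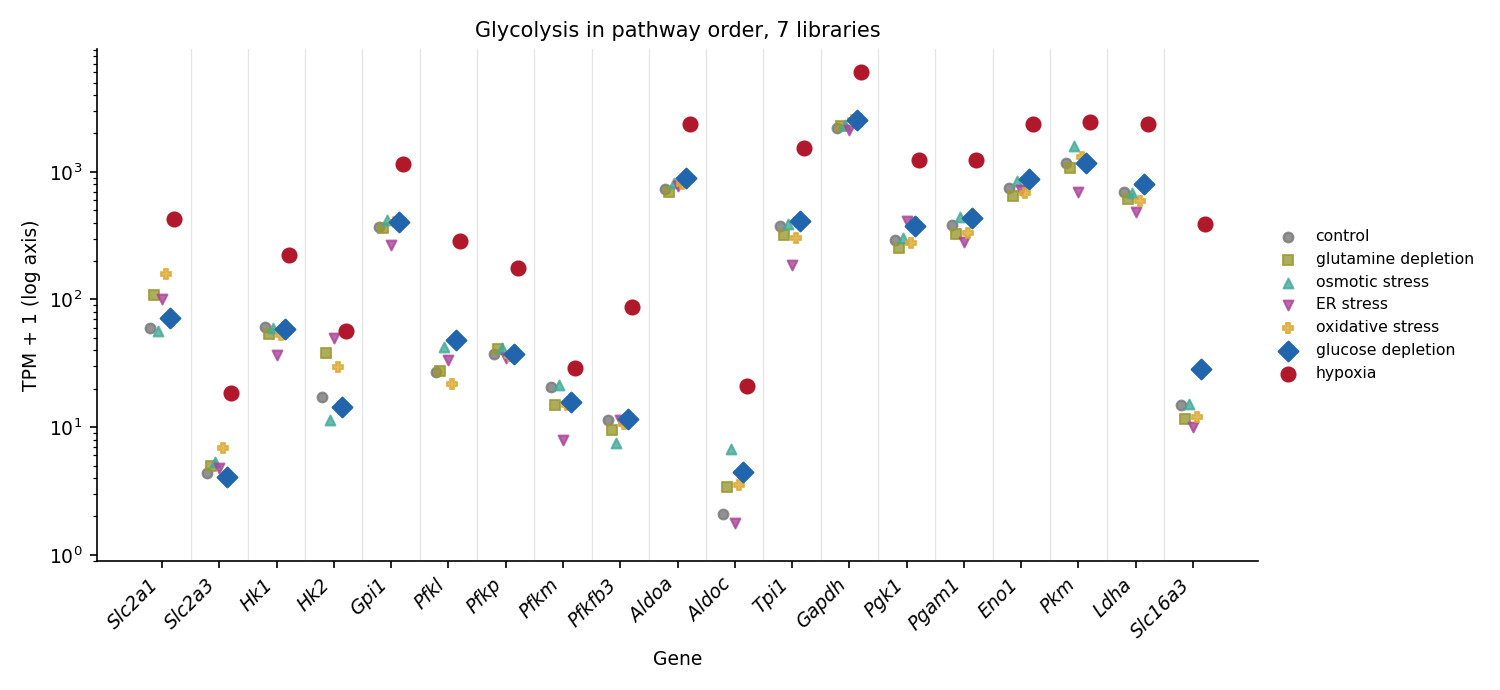
TPM + 1 on a log axis for 19 genes from glucose uptake to lactate export in the 7 libraries, each symbol 1 library. The red hypoxia point is the highest for every gene drawn, while the blue glucose depletion point lies near the other libraries, with Slc16a3 at 27.4 TPM the clearest exception.

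Glycogen genes went the same way as glycolysis. Of 11 genes, 6 were at least 2-fold higher in hypoxia and 0 in glucose depletion (median 1.64). Hypoxia was the highest library in 10, against 15.9% of all genes. Ppp1r3b and Ppp1r3c, which bring a phosphatase to glycogen and activate glycogen synthase, were at 32.2 and 2.74 TPM (3.15) and at 16.6 and 1.02 TPM (3.12). Gys1, the muscle-type glycogen synthase that fibroblasts use, was at 196 and 46.0 TPM (2.07). Genes of both directions of the pathway were included, since Pygl, a glycogen phosphorylase, was at 33.5 and 3.62 TPM (2.90). Several of these genes are low in MEFs, and without genes under a mean of 10 TPM the median of the list was 0.51.

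Downstream of pyruvate the difference narrowed to 1 gene. Of 27 genes of pyruvate dehydrogenase, its kinases and the TCA cycle, 1 was at least 2-fold higher in hypoxia, with a median of -0.05. That is 3.70% of the list, near the 4.03% of all genes 2-fold apart. Pdk1, a kinase that inhibits pyruvate dehydrogenase and so the making of acetyl-CoA from pyruvate, was at 152 TPM in hypoxia, 13.4 in glucose depletion and 5.16 to 14.5 in the other 5 libraries (3.40). Pdk4, the family member tied to fasting and fat use, leaned the other way at 7.77 and 14.4 TPM (-0.81), and glucose depletion was its highest library. The core respiratory machinery was similar in level. Of 73 nuclear subunit genes 2 (2.74%) were at least 2-fold higher in hypoxia (median -0.09). They were Cox7a1 at 7.29 and 1.36 TPM (1.82) and Ndufv3 at 267 and 111 TPM (1.26). The 13 mitochondrially encoded proteins summed to 57384 TPM in hypoxia and 58377 TPM in glucose depletion, and none was 2-fold apart.

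Mitochondrial proteins that are exchanged or added when oxygen is low had a median close to that of glycogen genes and above the other 36 lists. Several members were listed because they are known to change with oxygen. The place of this list above pathway lists therefore follows in part from that choice and is no separate result. Of 11 genes of mitophagy and oxygen-switched subunits that passed the filter, 7 were at least 2-fold higher in hypoxia and 0 in glucose depletion (median 1.65). The order of these lists depended on the settings, since with a pseudocount of 0.1 TPM the medians were 1.66 here and 1.78 for glycogen, and with a filter at 10 TPM 1.497 here and 1.539 for glycolysis. Ndufa4l2, a variant of the respiratory subunit Ndufa4 (chromosome 10, 127514967 to 127517154 in GRCm38), was at 233 TPM in hypoxia, 6.52 in glucose depletion and 0.233 to 9.05 in the other 5 libraries (4.96). Ndufa4 itself was at 327 and 307 TPM (0.09). The pair of cytochrome oxidase subunits showed the same contrast. Cox4i2 was at 29.8 and 1.43 TPM (3.67), and the constitutive Cox4i1 at 535 and 543 TPM (-0.02). Lonp1, the matrix protease, was at 156 and 60.8 TPM (1.34), and ER stress was higher at 204 TPM. Among mitophagy genes Bnip3l was at 403 and 128 TPM (1.65), whereas Fundc1 was at 29.0 and 25.1 TPM (0.20) and Pink1 at 18.2 and 18.4 TPM (-0.01). Mgarp, a mitochondrial protein outside the lists, had the largest difference of all genes (5.09), with 38.1 TPM in hypoxia, 0.152 in glucose depletion and 0.169 to 1.11 in the others. It was near 0 in all 6 libraries other than hypoxia, and its rank depended on the pseudocount. With 5 TPM its difference was 3.07, below Ndufa4l2 (4.37), Bnip3 (4.24) and Egln3 (3.83), and with 0.1 TPM it was 7.25, below Rny3 (8.24), a gene listed at 0 in glucose depletion.

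**Figure D3:**
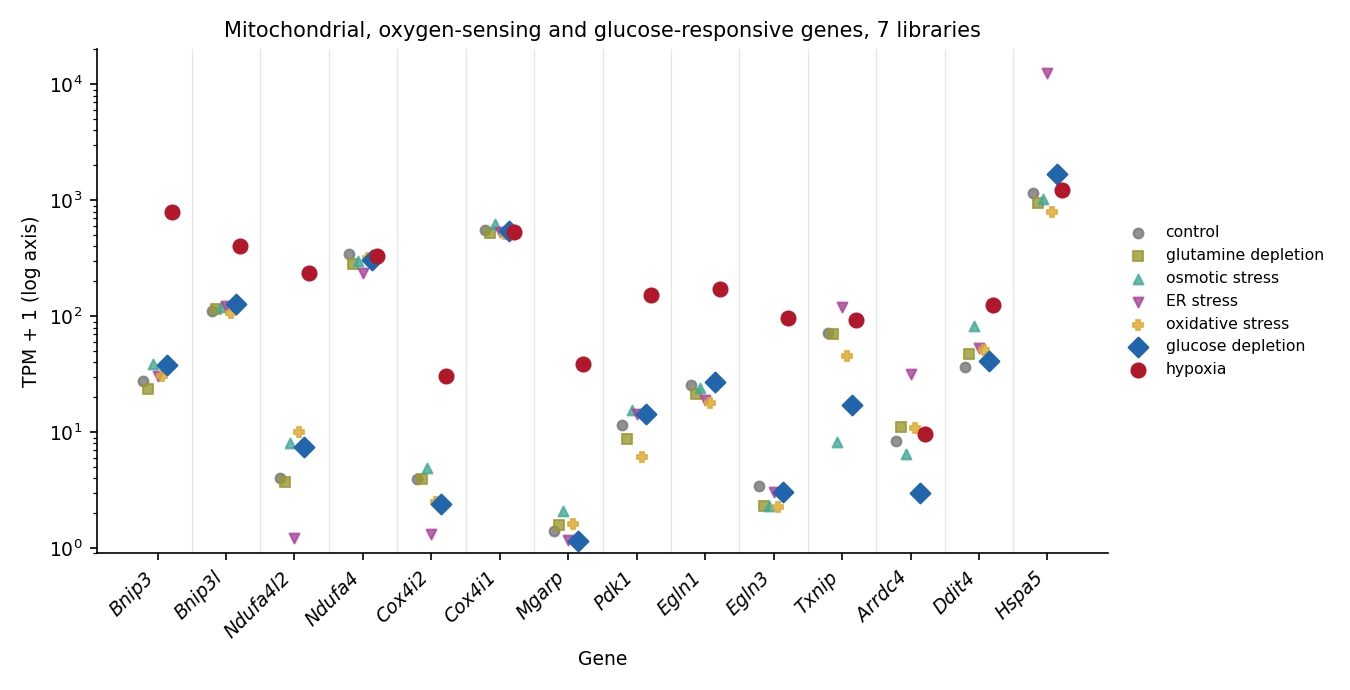
TPM + 1 on a log axis for mitochondrial, oxygen-sensing and glucose-responsive genes in the 7 libraries, each symbol 1 library. Bnip3, Ndufa4l2, Cox4i2, Mgarp, Pdk1, Egln1 and Egln3 stand apart in hypoxia beside the level Ndufa4 and Cox4i1, whereas Txnip and Arrdc4 are low in glucose depletion with hypoxia near the control.

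The glucose-responsive arrestins Txnip and Arrdc4 were set apart by low values in glucose depletion, not by high ones in hypoxia. Of the 7 genes of MondoA and the arrestin family that passed the filter, 2 were at least 2-fold higher in hypoxia and 0 in glucose depletion (median 0.26). Besides Txnip this was Arrdc4, at 8.70 TPM in hypoxia, 1.97 in glucose depletion, 7.38 in the control and 5.54 to 31.1 over the other 5 libraries (1.71). Glucose depletion was its lowest library and hypoxia lay inside the range of the rest. Arrdc3, a relative, was at 30.0 and 17.6 TPM (0.74), with hypoxia the highest library. With a pseudocount of 5 TPM the difference of Arrdc4 was 0.97, within 2-fold.

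Single restraints on energy use were higher in hypoxia, and most of their list was within 2-fold. Of 19 genes of AMPK and mTORC1 restraint, 2 were at least 2-fold higher in hypoxia and 0 in glucose depletion (median 0.24). That is 10.5% of the list, against 4.03% of all genes 2-fold apart. Ddit4, which blocks mTORC1, was at 123 TPM in hypoxia, 40.4 in glucose depletion and 35.4 in the control (1.59), and Foxo3 was at 28.9 and 12.7 TPM (1.13). Sesn2, another such gene, was at 36.8 and 28.1 TPM (0.38). Of 17 genes listed for the integrated stress response, 4 (23.5%) were at least 2-fold higher in hypoxia and 0 in glucose depletion (median 0.59). Ddit3, which encodes CHOP, was at 208 and 96.0 TPM with 136 in the control (1.11), and ER stress reached 1870 TPM. Trib3 was at 71.1 and 27.7 TPM (1.33). The largest differences were those of Stc2 at 58.3 and 11.2 TPM (2.28) and Vldlr at 85.9 and 15.9 TPM (2.36). Neither of these is itself a regulator of the response. The factor Atf4 differed little in transcript, at 309 and 260 TPM (0.25).

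Genes that ATF4 is known to drive for amino acid supply were mostly within 2-fold. Of 27 genes of amino acid synthesis and transport 3 (11.1%) were at least 2-fold higher in hypoxia (median 0.08), against 2.61% of all genes. They were Mthfd1l (1.39), Aldh1l2 (1.12) and Slc1a4 (1.01), while Asns was at 132 and 125 TPM (0.08). None of 20 aminoacyl-tRNA synthetases was 2-fold apart (median -0.09). ER chaperones leaned toward glucose depletion. Of 25 genes, 21 were lower in hypoxia by some amount, which held for 52.2% of all genes, with a median of -0.34. The list had a median of 0.06 in hypoxia and 0.33 in glucose depletion against the same control library. Hspa5, the chaperone BiP, was at 1224 TPM in hypoxia, 1689 in glucose depletion and 1165 in the control (-0.46), while ER stress reached 12611 TPM. Sdf2l1 was at 40.4, 60.8 and 31.1 TPM (-0.58). Of the 4 genes higher in hypoxia, 1 was past 2-fold. It was Ero1l, the oxidase of disulfide formation, which passes electrons to oxygen, at 327 and 46.9 TPM (2.78). Herpud1 was also among the 4 (0.625). No gene of the 24 compared of the hexosamine pathway and N-glycosylation was 2-fold apart. Gmppa and Gmppb of this list were not compared, because their symbols begin with Gm and were left out with the predicted genes.

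Enzymes that consume oxygen while modifying collagen or chromatin were higher in hypoxia in part. Of 18 collagen hydroxylases and crosslinking enzymes, 4 were at least 2-fold higher in hypoxia and 0 in glucose depletion (median 0.21). P4ha2 and P4ha1, catalytic subunits of collagen prolyl hydroxylase, were at 500 and 117 TPM (2.09) and at 486 and 165 TPM (1.56). Plod2 and Plod1, lysyl hydroxylases, were at 203 and 46.6 TPM (2.10) and at 176 and 65.6 TPM (1.41). None of 28 listed collagens and matrix proteins was 2-fold apart (median 0.14). Col15a1, a collagen outside the list and named after its values were seen, was at 1.55 and 5.79 TPM (-1.41). Of 21 JmjC histone demethylases and TET enzymes, 5 (23.8%) were at least 2-fold higher in hypoxia (median 0.29), against 2.61% of all genes. They were Kdm3a at 60.3 and 17.1 TPM (1.76), Kdm6b (1.38), Jmjd6 (1.37), Tet2 (1.35) and Kdm4b (1.32).

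Acid handling, lipid and metal-binding genes held single members with large differences. Of 8 carbonic anhydrases and acid transporters 2 were at least 2-fold higher in hypoxia (median 0.14). Car9, the surface carbonic anhydrase, was at 34.8 TPM in hypoxia, 3.53 in glucose depletion and 6.38 in the control (2.98), and Car6 at 9.37 and 2.75 TPM (1.47). Hilpda, an inhibitor of fat breakdown on lipid droplets, was the sole one of 21 genes of fatty acid oxidation and lipid storage past 2-fold, at 84.9 and 14.8 TPM (2.44). That is 4.76% of the list, near the 4.03% of all genes 2-fold apart. Of 34 genes of cholesterol and fatty acid synthesis 2 were at least 2-fold higher in hypoxia (median 0.21), Scd2, a desaturase, at 439 and 171 TPM with 253 in the control (1.36), and Tm7sf2 (1.30). The share apart in this list, 5.88%, was also near that of all genes. Against the control library the list stood at -0.47 in hypoxia and -0.63 in glucose depletion. Of 18 genes of the NRF2 and glutathione list 3 were at least 2-fold higher in hypoxia (median -0.02), the metallothioneins Mt1 at 1085 and 243 TPM (2.15) and Mt2 at 659 and 197 TPM (1.74), and Hmox1, the heme oxygenase, at 497 and 217 TPM (1.19). Txnrd1, thioredoxin reductase, leaned the other way at 109 and 208 TPM (-0.93).

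Most secreted factors were within 2-fold, and those past it divided between the treatments. Of 55 growth factors and cytokines that passed the filter, 46 were within 2-fold, with a median of -0.01. At least 2-fold higher were 3 in hypoxia and 6 in glucose depletion, against 2.61% and 1.42% of all genes. On the hypoxia side Vegfa, the endothelial growth factor, was at 275 TPM in hypoxia, 103 in glucose depletion and 78.6 in the control (1.40), and reached 402 TPM in another of the libraries. Adm, the vasodilator adrenomedullin, was at 172, 66.3 and 84.4 TPM (1.37), and Fgf21 was at 1.78 and 0.205 TPM (1.21), near the floor of the scale. Stc1, a secreted hormone placed in another list, was at 32.3 and 3.10 TPM (3.02).

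Of the 6 factors higher in glucose depletion, the 5 described here signal to epithelium, fibroblasts and macrophages. Ereg, an EGF receptor ligand, was at 5.74 TPM in hypoxia, 23.8 in glucose depletion, 16.2 in the control and 16.2 to 108 over the other 5 libraries (-1.88). Fgf2, a fibroblast growth factor, was at 26.4, 66.7 and 46.9 TPM (-1.30). Inhba, the activin A subunit, was at 132, 293 and 199 TPM (-1.14). In these 3 genes hypoxia lay below the control and glucose depletion above it. Csf1, the macrophage growth factor, was at 197, 411 and 377 TPM (-1.06), and the monocyte chemokine Ccl2 at 31.1, 63.3 and 64.9 TPM, just past 2-fold and within it (-0.98) after centring on the median gene. In these last cases glucose depletion was near the control and hypoxia was the lowest of the 7 libraries. Among 26 immediate early genes and ERK feedback genes 1 was at least 2-fold higher in hypoxia, Ier3 at 169 and 54.1 TPM (1.63), and 3 in glucose depletion, Egr3 at 3.15 and 10.6 TPM (-1.49), Dusp5 at 9.30 and 24.3 TPM (-1.30) and Egr2 (-1.05), with a median of 0.00. Of this list 15.4% was 2-fold apart, against 4.03% of all genes.

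Genes of DNA replication were lower in hypoxia by small amounts across nearly the whole list. Of 30 genes of DNA replication and S phase, 29 were lower in hypoxia by some amount (52.2% of all genes were), 13 by at least 1.5-fold (6.88% of all genes), and 1 by 2-fold, Gins1 of the replicative helicase at 5.93 and 13.6 TPM (-1.07). The median was -0.56, and glucose depletion was the highest library in 16 genes, a place it held in 9.05% of all genes. Mcm5, another helicase subunit, was at 29.7, 52.0 and, in the control, 44.3 TPM (-0.79). Mitosis genes separated less, with 0 of 28 past 2-fold and a median of -0.13. The G1 list leaned the other way. Among 18 genes of G1 cyclins, Myc and CDK inhibitors 13 were higher in hypoxia by some amount (47.7% of all genes were), and 2 were at least 2-fold higher in hypoxia (median 0.29), Mxi1, a MYC antagonist, at 27.0 and 4.87 TPM (2.25), and Ccng2, a cyclin of arrested cells, at 51.0 and 18.2 TPM (1.44).

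Genes of ribosome biogenesis were lower in hypoxia almost throughout. This list of 51 genes was added after the values had been seen, so its choice is not independent of them. By some amount 50 were lower in hypoxia (52.2% of all genes were). By at least 1.5-fold 34 were lower (6.88% of all genes), and 7 by at least 2-fold (1.42%). The median was -0.67, and hypoxia was the lowest of the 7 libraries in 38, against 12.7% of all genes. Their TPM summed to 3623 in hypoxia, 5487 in glucose depletion and 4969 in the control. Nhp2 and Dkc1, subunits of the pseudouridylation complex, were at 42.9 and 118 TPM (-1.44) and at 36.8 and 86.2 TPM (-1.21). Nop58, the core of the methylation complex, was at 147 and 308 TPM (-1.06), and the helicase Ddx21 at 39.7 and 83.6 TPM (-1.06). The exception was Polr1c (0.42), a subunit shared by RNA polymerases I and III.

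**Figure D4:**
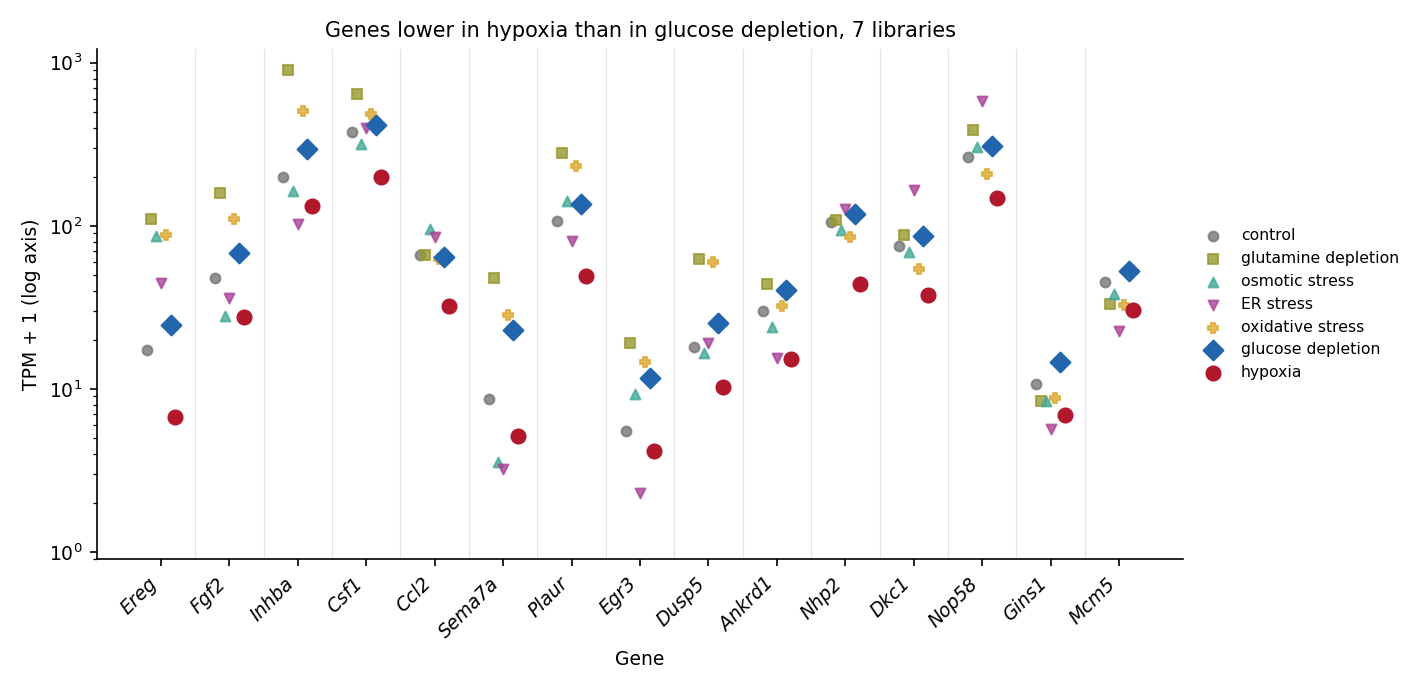
TPM + 1 on a log axis for secreted factors, surface and signalling genes, and ribosome and replication genes in the 7 libraries, each symbol 1 library. The red hypoxia point lies below the blue glucose depletion point in every gene drawn, and is the lowest of the 7 libraries for Ereg, Fgf2, Csf1, Ccl2, Plaur, Dusp5, Ankrd1, Nhp2, Dkc1 and Nop58.

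Known hypoxia-responsive regulators and the circadian clock were also read. Of 17 signalling and transcription factors chosen because hypoxia is known to affect them, 10 were at least 2-fold higher in hypoxia and 1 in glucose depletion, Foxs1 (-1.11), with a median of 1.37. Selenbp1, a methanethiol oxidase, was at 36.9 and 1.90 TPM (3.71), and Ndrg1 at 149 and 11.4 TPM (3.60). The repressors Bhlhe41 and Bhlhe40 were at 21.1 and 4.17 TPM (2.10) and at 105 and 34.9 TPM (1.57). Ak4, a mitochondrial adenylate kinase, was at 110 and 13.2 TPM (2.97). Of 13 clock genes 2 (15.4%, against 2.61% of all genes) were at least 2-fold higher in hypoxia (median 0.42). They were Ciart at 24.0 and 6.41 TPM (1.76) and Cry1 at 17.4 and 7.70 TPM (1.08). Of 17 contractile and SRF target genes 1 was at least 2-fold higher in glucose depletion, Ankrd1 at 14.2 and 39.1 TPM (-1.40). That is 5.88% of the list, near the 4.03% of all genes 2-fold apart. The list had a median of -0.27, with Actb at 3071 and 4835 TPM (-0.66). The muscle marker Acta1 differed in the same direction, as given above, and its part in this was not tested. Of 9 IGF-binding and STC hormone genes Stc1 alone was past 2-fold (median 0.26).

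**Figure D5:**
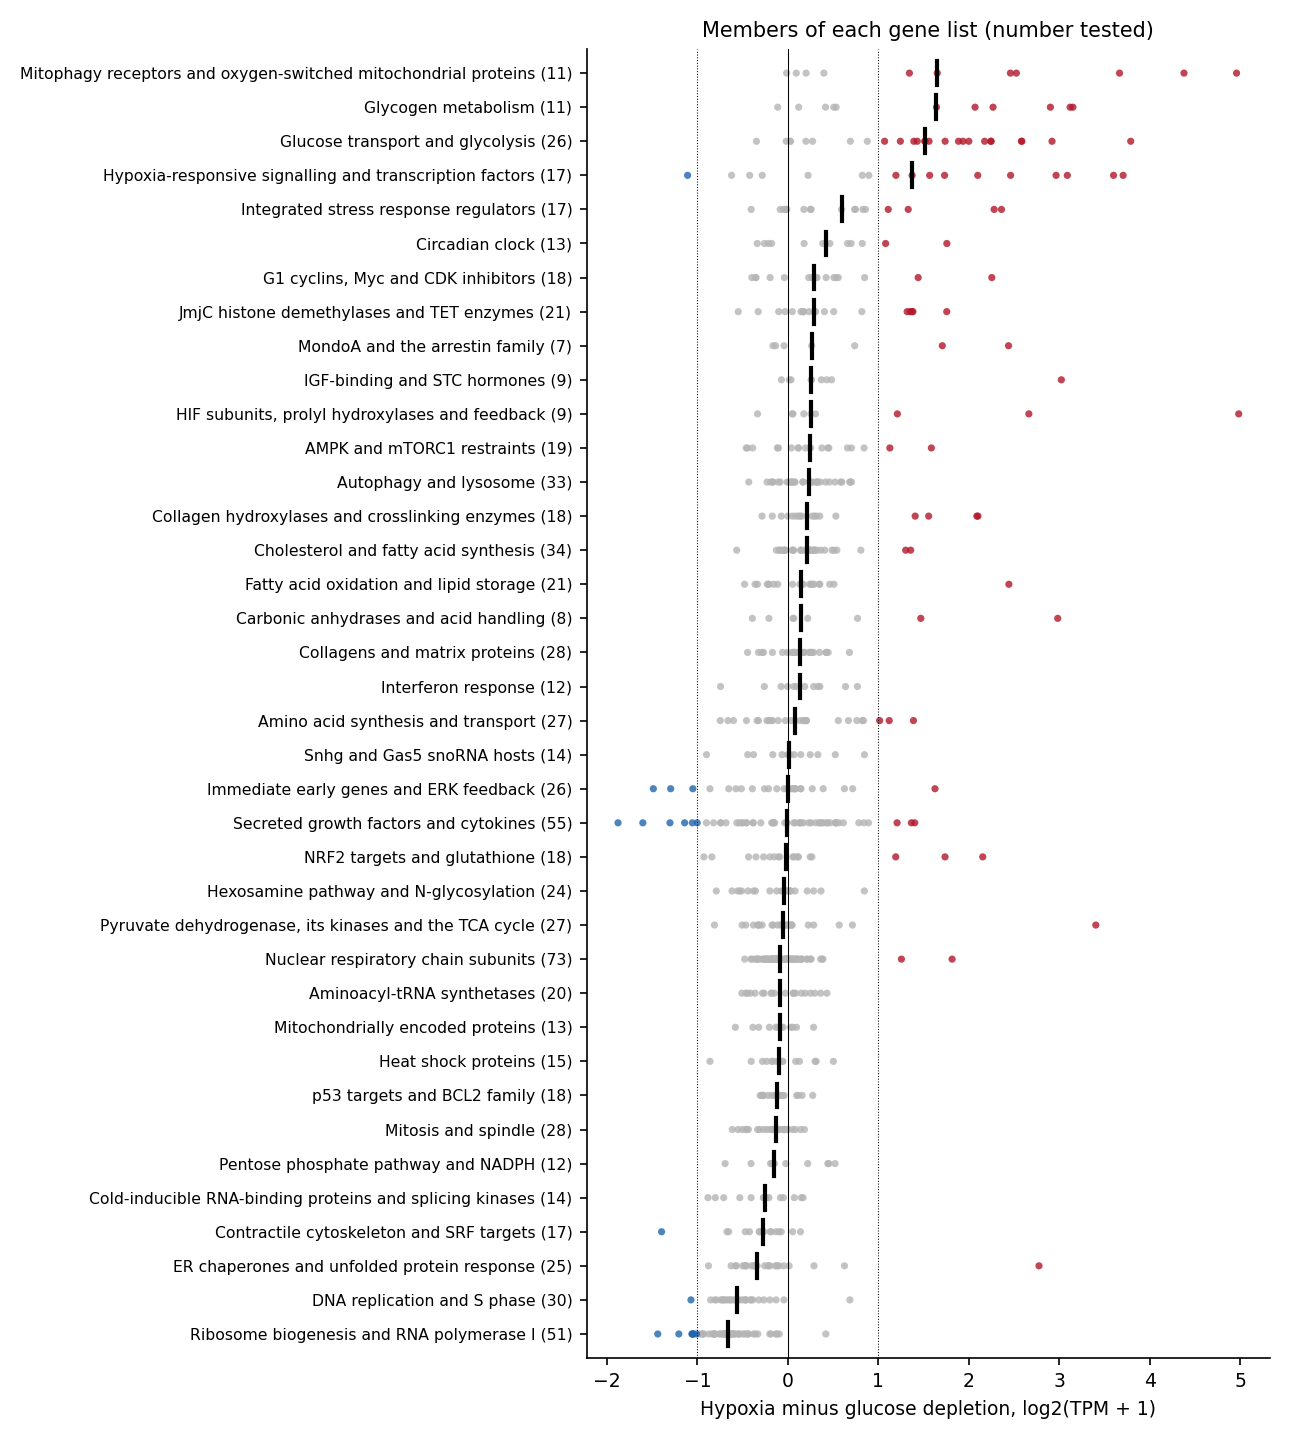
Difference between hypoxia and glucose depletion, in log2(TPM + 1), for each member of 38 gene lists, with the number of genes compared in parentheses. Each point is a gene, red or blue where at least 2-fold higher in hypoxia or in glucose depletion, and the black bars are medians, which run from 1.65 for oxygen-switched mitochondrial proteins to -0.67 for ribosome biogenesis.

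The remaining lists stayed within 2-fold throughout. They were the pentose phosphate pathway (12 genes, median -0.15), p53 targets and the BCL2 family (18, -0.12), heat shock proteins (15, -0.10), autophagy and lysosome (33, 0.23), snoRNA host genes (14, 0.01), interferon response (12, 0.14) and cold-inducible RNA-binding proteins with splicing kinases (14, -0.25). Within the last, Rbm3 was at 301, 557 and, in the control, 507 TPM (-0.88). Hspd1, the mitochondrial chaperonin, was at 304 and 553 TPM (-0.86), and hypoxia was its lowest library.

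The far ends of the ranking held few genes of known function on the glucose depletion side. Of the 12 genes with the largest excess in hypoxia, 8 were protein-coding (Mgarp, Egln3, Ndufa4l2, Bnip3, H2-Ab1, Slc16a3, Selenbp1 and Cox4i2), and the others were Rny3, Traj23, AC164561.2 and CT030170.2, each listed at 0 in glucose depletion. Of the 12 with the largest excess in glucose depletion, 9 were listed at 0 in hypoxia, and Pagr1b was the sole one annotated as protein-coding. They were 1700030C10Rik, AL928567.1, AC139186.1, n-TSaga9, AC124457.1, mmu-mir-493, Rab3a, AC154636.1, Pagr1b, Rny1, AEKR01077154.1 and AC122428.2. In a table without counts a value of 0 can be a failed estimate, so no fold is given for them. The Rab3a entry is 1 of several rows with that symbol. The Rab3a row with the highest mean went the other way, higher in hypoxia by 0.678, and was the row used in the alternative settings. The pseudogene 1700030C10Rik was at 22.3 TPM in glucose depletion, 0.132 in hypoxia and at most 0.417 in the other 5 libraries (-4.37).

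Among protein-coding genes chosen after their values were seen, several surface and signalling genes were higher in glucose depletion. Sema7a, a membrane-anchored semaphorin, was at 4.12 TPM in hypoxia, 21.8 in glucose depletion and 7.61 in the control (-2.16), and glutamine depletion was higher still at 46.6 TPM. Plaur, the urokinase receptor, was at 48.1, 136 and 106 TPM (-1.48). The integrin subunit Itgb3 was at 10.1, 28.7 and 14.4 TPM (-1.43), and the sulfotransferase Chst11 at 9.82, 31.0 and 16.1 TPM (-1.57). In these 4 genes glutamine depletion was the highest of the 7 libraries. On the hypoxia side Prelid2 was at 85.7 and 6.02 TPM (3.63), Ndrg2 at 40.4 and 3.17 TPM (3.31), and Apln, the peptide apelin, at 80.7 and 11.3 TPM (2.73). In these 3 genes hypoxia was the highest library.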

How the data were processed

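The 7 libraries were stranded mRNA libraries, 1 per condition, and 2 of them, hypoxia and glucose depletion, were compared directly. The authors pseudoaligned the reads with kallisto 0.43.1 to transcripts of GRCm38 and deposited TPM summed per gene, and these deposited TPM hold no read count, so the depth is unknown and no counting interval was given. From these values log2(TPM + 1) was computed, and glucose depletion was subtracted from hypoxia. Genes that averaged 2 TPM or more were kept (12909 of 49382), and 1282 of these were left out because their symbol begins with Gm, Mir, Snor or mt-T or holds -ps or -rs. A symbol stood on several rows for 80 symbols, with identical values in 69, and lists counted it once. Named genes were Bnip3, Txnip, the 12 largest differences on each side, up to 8 members of each list and members that order a pathway. The comparison, members and lists were chosen with earlier results of these data known. The ribosome biogenesis list and the restriction to protein-coding genes were added after seeing the data. Start-site sequences came from RefSeq (GRCm38.p6), gene types and locations from GENCODE M21, in which 124 of the genes had no match. Motif shares were given for all genes with a start site and for the glycolysis list alone. A start site in the table was found for 78.6% of the genes compared. It was found for 75.9% of those higher in hypoxia and 67.3% of those higher in glucose depletion. These were too few for the check. A member of the growth factor list is counted but not reported here by name. The scripts were tested on simulated data. Each count was repeated with a pseudocount of 0.1 or 5 TPM, without the expression filter or with one at 10 TPM, with subtraction of the median, without mitochondrial genes, at 1.5-fold and 3-fold, and with no symbols left out. The software was pandas 2.3.3 and numpy 2.4.6 under Python 3.11.15, with matplotlib 3.10.9 for figures.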

Additional observations from a re-analysis of the deposited data

How the results depend on the processing

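Of the 123 named genes at least 2-fold apart, 22 came within 2-fold with a pseudocount of 5 TPM and 2 after centring, Nol9 and Ccl2. None changed sign, but the alternatives could not have changed one. A pseudocount or a filter keeps the sign of a difference, and centring shifted values by 0.019. Of the values of named genes under the alternatives, 59 moved by over 1.5-fold, 20 with a pseudocount of 0.1 TPM and 39 with 5 TPM. With 5 TPM the difference of Mgarp was 3.07, Egln3 3.83, Ndufa4l2 4.37, Cox4i2 2.44, Car9 2.22 and Stc1 2.20. The counts depended on the settings. With 303 genes higher in hypoxia and 165 higher in glucose depletion as reported, there were 163 and 55 with a pseudocount of 5 TPM, 464 and 277 with no filter, 138 and 86 with a mean of at least 10 TPM, 541 and 357 with no symbols left out, 936 and 800 at 1.5-fold, and 115 and 30 at 3-fold. At 3-fold, 2 lists in place of 4 had a median past the threshold. With a mean of at least 10 TPM the glycogen list had a median of 0.507 and 28.6% of its members 2-fold apart, and DNA replication 0%. With a pseudocount of 5 TPM the share apart was 12.5% for carbonic anhydrases, 14.3% for the MondoA list, 0% for DNA replication and 5.88% for ribosome biogenesis. At 1.5-fold it was 52.9% for the integrated stress response, 46.7% for DNA replication and 66.7% for ribosome biogenesis. At 3-fold it was 42.3% for glycolysis, 12.5% for carbonic anhydrases, 11.8% for the integrated stress response, 0% for DNA replication, 41.2% for the hypoxia-responsive factors and 0% for ribosome biogenesis. All other list medians, 263 values over lists and alternatives, moved by less than 1.5-fold. These changes follow from the thresholds and scales themselves. No paired analysis was possible because each condition has 1 library, and none could be left out. Without replicates, small differences cannot be told from variation between cultures, and genes below a few TPM are the least certain.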

Other observations

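H2-Ab1, a chain of an MHC class II molecule, was at 14.8 TPM in hypoxia, listed at 0 in glucose depletion and at most 0.442 TPM in the other 5 libraries. Its partner chain H2-Aa was listed at 0 in all 7 libraries, H2-Eb1 was listed at 0 in hypoxia, and Cd74, the class II invariant chain, was at 0.596 TPM in hypoxia and 3.09 TPM in ER stress. Hist2h2aa1, a histone gene with a near-identical copy, was at 5.64 TPM in hypoxia and 5.63 TPM in the control and listed at 0 in glucose depletion, so its split between copies is uncertain. Adm2, a relative of adrenomedullin, was at 42.9 TPM in hypoxia, 5.15 in glucose depletion and 67.8 TPM at its highest in the other 5 libraries.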
